A study of Mus musculus with 6 samples.

Results

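The tiles described are stretches of 1 kb that were partly methylated in the germ cells of control mice. They were selected on measured values: a tile of an autosome was a member where the methylation level of each of the 4 control pups lay from 20% to 50%, so control levels are given as a description, with no test. Of 329142 autosomal tiles that held 3 or more CpGs and had 10 or more calls in every pup, 4232 (1.29%) were members. In the same set, 28800 tiles (8.75%) were under 20% in each control pup and 261513 (79.5%) were over 50% in each.

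The cells were germ cells of male pups, taken 2.5 days after birth. The pups came from crosses between Tex15 heterozygous parents on a mixed strain background, and the cells had been sorted by flow cytometry for the fluorescence of an Oct4-GFP reporter, which all groups carried. The groups were Tex15KO pups 3 and 16 (both copies of Tex15 disrupted), Tex15HT pups 7 and 18 (1 copy disrupted) and Tex15WT pups 8 and 9 (wild type), with 1 library of whole-genome bisulfite sequencing per pup and n = 2 per group. Tex15HT and Tex15WT pups are called controls here. Bisulfite converts unmethylated cytosine so that it is read as T, and a methylation level is the share of calls read as C.

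Male germ cells erase most DNA methylation in the fetus and restore it in the prospermatogonia before and around birth. Most of the genome becomes methylated, while CpG-rich gene starts, the CpG islands, mostly stay unmethylated. TEX15 is known in mouse as a germ cell protein that works with the PIWI-interacting RNA pathway to methylate retrotransposons. A tile at an intermediate level can hold CpGs that are each methylated in some of the DNA copies, or unmethylated CpGs beside methylated ones, and the sum over a tile does not tell these apart.

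Total CpG calls ranged from 27495658 to 52935635 per pup. Tex15KO 3 stood apart from the other 5 libraries: 74.4% of the cytosines of the table had 0 calls there, against 1.71% to 10.2% elsewhere. Where a cytosine had 6 to 10 calls, these were either all C or all T at 96.5% of cytosines of Tex15KO 3 and at 57.8% to 68.3% of those in other libraries. Results that rest on both Tex15KO pups are therefore also given for Tex15KO 16 alone. As a check of the labelled cell type, the 77 CpGs observed at the starts of 7 genes whose maternal copy is methylated in somatic cells (Mcts2, Mest, Nap1l5, Nnat, Peg3, Usp29 and Zrsr1) had summed levels of 6.90% and 6.92% in Tex15KO 3 and 16, 1.03% and 7.89% in Tex15HT 7 and 18, and 4.19% and 7.83% in Tex15WT 8 and 9. Not every start was read in each pup: the 174 calls of Tex15KO 3 came from Mcts2 and Zrsr1 only, with 0 at the other 5 genes, so its sum is not a level of all 7. Zrsr1 had 45.5% and 26.7% in Tex15KO 3 and 16, on 22 and 15 calls, and 0% in all 4 controls, on 10 to 16 calls, which allow up to 30% in the pup with fewest. Single control pups were high elsewhere. Nnat had 32.3% in Tex15WT 9, on 31 calls, and Nap1l5 22.1% in Tex15HT 18, on 86 calls. A start of Mest had 40% in Tex15WT 8 and 20% in Tex15HT 18, on 10 and 25 calls. In Tex15KO 16 these 3 starts had 4.35%, 1.85% and 15.6%. The starts of the 7 genes were chosen after values of these data had been seen.

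Gene starts at member tiles serve as examples of tiles at an intermediate level. The RefSeq sequences of build GRCm38.p6 are printed for 4 of them, which were chosen with control levels known. They run from 250 bases before to 50 bases after the start, with each CpG in capitals. The first is that of Stx7, which encodes a syntaxin of the endosomal fusion machinery, on the plus strand. The second is that of the olfactory receptor gene Olfr323 on the minus strand. The others belong to the predicted genes Gm1110 on the minus strand and Gm28453 on the plus strand.
Stx7: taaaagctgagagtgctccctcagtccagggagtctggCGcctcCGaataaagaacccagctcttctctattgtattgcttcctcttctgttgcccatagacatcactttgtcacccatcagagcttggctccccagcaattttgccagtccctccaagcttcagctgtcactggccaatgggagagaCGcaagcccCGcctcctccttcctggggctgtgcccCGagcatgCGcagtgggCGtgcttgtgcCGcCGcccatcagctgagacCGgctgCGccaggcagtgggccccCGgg
Olfr323: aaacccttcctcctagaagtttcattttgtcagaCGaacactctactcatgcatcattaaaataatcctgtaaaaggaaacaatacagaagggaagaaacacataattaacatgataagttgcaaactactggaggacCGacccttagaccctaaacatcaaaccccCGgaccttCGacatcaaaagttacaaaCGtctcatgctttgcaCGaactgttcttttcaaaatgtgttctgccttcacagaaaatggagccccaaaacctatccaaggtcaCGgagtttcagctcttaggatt
Gm1110: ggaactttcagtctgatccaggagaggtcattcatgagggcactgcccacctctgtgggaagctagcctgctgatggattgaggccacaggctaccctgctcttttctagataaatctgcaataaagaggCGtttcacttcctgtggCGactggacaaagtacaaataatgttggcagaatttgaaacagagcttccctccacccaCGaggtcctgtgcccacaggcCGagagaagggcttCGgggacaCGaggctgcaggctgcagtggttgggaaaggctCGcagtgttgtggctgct
Gm28453: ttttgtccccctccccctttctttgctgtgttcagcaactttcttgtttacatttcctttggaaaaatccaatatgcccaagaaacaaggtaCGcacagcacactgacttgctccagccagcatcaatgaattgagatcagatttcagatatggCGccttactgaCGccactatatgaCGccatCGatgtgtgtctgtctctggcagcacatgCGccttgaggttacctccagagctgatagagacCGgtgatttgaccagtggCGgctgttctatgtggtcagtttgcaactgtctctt
Their positions in mm9, the build of the deposited table, were found by matching the spacing of the CpGs in the sequence to that of the table.

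The Stx7 start lay at the edge of a methylated stretch. It was chosen for a tile with a high and a low side and for a low pooled control level of its sequence. Its edge position and low control level thus follow from the choice and are a description. Its sequence has 12 CpGs, of which 9 had calls, and all 9 were at 0% in the pooled controls and in Tex15KO 16, with 24 to 48 calls per pup over the sequence, which allow a level of up to 12.5% in the pups with fewest calls. The member tile at chr10:23868001-23869000 holds 128 of the 300 bases. Its 8 CpGs outside the sequence were at 81.2% and 54.8% in Tex15KO 3 and 16, 65.0% and 54.8% in Tex15HT 7 and 18, and 50% and 59.4% in Tex15WT 8 and 9. The tile as a whole, with 10 CpGs, came to 81.2% and 39.5% in Tex15KO 3 and 16, 46.4% and 41.5% in Tex15HT pups, and 35.7% and 46.3% in Tex15WT pups. Tex15KO 3 had no call on the part of the sequence inside this tile, and Tex15KO 16 lay within the range of the controls.

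The other 3 sequences lie whole inside their tiles, and their own pooled control levels were 41.3% at Olfr323, 24.1% at Gm1110 and 16% at Gm28453, the last below the lower bound of the rule. They were chosen by this level and by number of calls, so these control levels are a description. The 7 CpGs of the Olfr323 sequence, in the tile chr11:58439001-58440000, were at 63.6% and 55.3% in Tex15KO 3 and 16, 42.4% and 38.5% in Tex15HT 7 and 18, and 36.4% and 56.3% in Tex15WT 8 and 9, over 16 to 39 calls per pup. Tex15KO 16 was below Tex15WT 9 there, so the groups overlapped. The other 11 CpGs of this tile were at 44.4% in Tex15KO 16, 4.35% and 11.4% in Tex15HT pups, and 6.06% and 18.5% in Tex15WT pups, over 27 to 46 calls, with 0 calls in Tex15KO 3. There Tex15KO 16 lay above all 4 controls. The 7 CpGs of the Gm1110 sequence, in the tile chr9:26730001-26731000, were at 13.1% and 25.6% in Tex15KO pups, 11.8% and 27.7% in Tex15HT pups and 22.2% and 35.7% in Tex15WT pups. In the pooled controls each of these 7 CpGs lay between 14.3% and 31.3%, over 11 to 27 calls. The 8 CpGs of the Gm28453 sequence, in the tile chr7:39164001-39165000, were at 13.1% and 6.50% in Tex15KO pups, 12.8% and 23.7% in Tex15HT pups and 11.4% and 13.2% in Tex15WT pups, over 68 to 123 calls. Of 21 such 300-base sequences that lay whole inside a member tile, 13 had a pooled control level from 20% to 50%, 6 from 5% to 20% and 2 under 5%. Sequences on chromosome 18 were left out of this count.

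Over all 4232 members, the middle of the distribution was the same within 2 points in the 6 pups, while its width differed. The median tile level was 33.3% in Tex15KO 3 and 34.8% in Tex15KO 16, 33.3% and 34.5% in Tex15HT 7 and 18, and 33.9% and 35.2% in Tex15WT 8 and 9. The quartiles were 1.88% and 66.7% in Tex15KO 3, and 26.5% and 44.2% in Tex15KO 16. The rule keeps every control between 20% and 50%, so the narrower spread of the controls is set by the choice. In Tex15KO 16, which the rule did not use, 3224 members (76.2%) lay from 20% to 50%, 448 (10.6%) under 20%, 542 (12.8%) over 50% and up to 80%, and 18 over 80%. In Tex15KO 3, 1114 members (26.3%) lay from 20% to 50%, 1638 (38.7%) under 20% and 755 (17.8%) over 80%, with 1017 at exactly 0% and 489 at exactly 100%.

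**Figure D1:**
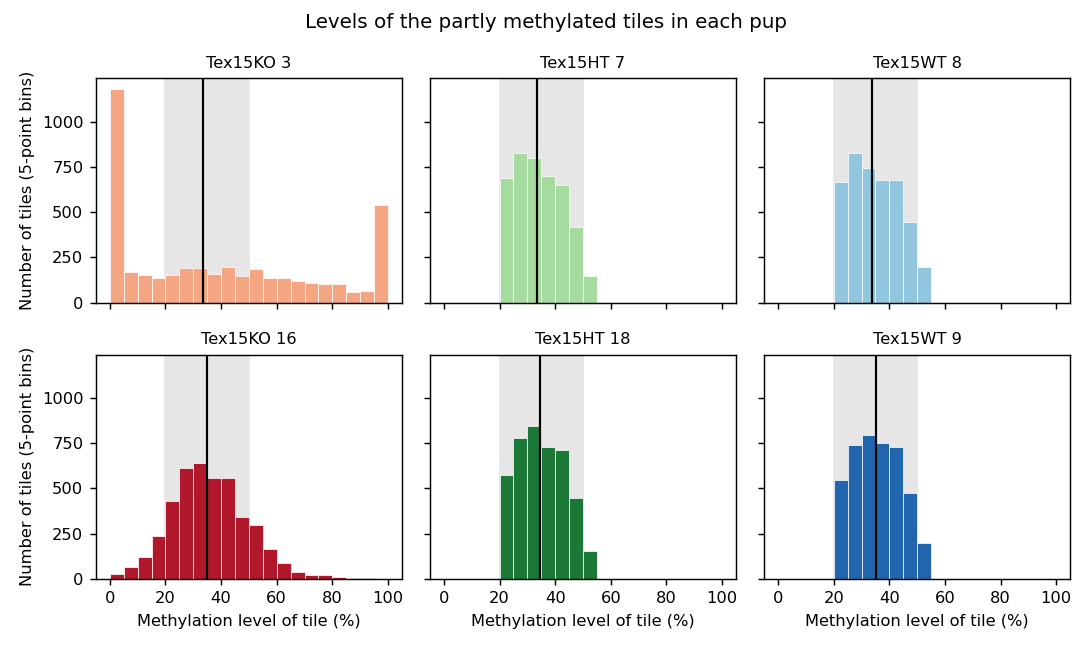
Number of partly methylated tiles (vertical axis) by methylation level in bins of 5 points (horizontal axis, %), 1 panel per pup, with the 20% to 50% range of the rule shaded and the median as a line. The 4 control panels are bounded by the rule (tiles at exactly 50% fall in the bin that starts at 50%), Tex15KO 16 has 1 peak with a median of 34.8%, and Tex15KO 3 has peaks at 0% and 100% beside a median of 33.3%.

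The wide spread of Tex15KO 3 went with the number of calls behind a tile. Among its 1048 members with 10 to 19 calls, 14.4% lay from 20% to 50% and 30.3% over 80%. Among its 469 members with 80 or more but under 1000 calls, 35.2% lay from 20% to 50% and 8.10% over 80%. For Tex15KO 16 the share from 20% to 50% was 63.6% of 165 members with 10 to 19 calls and 82.2% of 686 members with 80 or more but under 1000 calls. The share from 20% to 50% was thus larger among tiles of high call number in both pups. The low tail of Tex15KO 3 remained: 44.9% of its members with 10 to 19 calls were under 20%. This share was 37.5% with 20 to 39 calls, 36.7% with 40 to 79, and 38.0% with 80 or more but under 1000. In that last class, more of its members were under 20% than from 20% to 50%. The part of call number in the spread between the pups was not tested.

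Because the rule bounds the controls, the pups were also set beside each other on tiles chosen in 2 control pups only. Where Tex15HT 7 and Tex15WT 8 were both from 20% to 50% (9481 tiles), the median in the pups not used was 34.2% in Tex15KO 3 and 35.2% in Tex15KO 16, against 35.3% in Tex15HT 18 and 36.4% in Tex15WT 9. The quartiles there were 25% and 46.7% in Tex15KO 16, 24.8% and 47.1% in Tex15HT 18, and 25% and 48.7% in Tex15WT 9. Where Tex15HT 18 and Tex15WT 9 were both from 20% to 50% (10911 tiles), the medians were 31.3% in Tex15KO 3 and 33.3% in Tex15KO 16, against 31.6% in Tex15HT 7 and 32.5% in Tex15WT 8. The share of tiles that stayed from 20% to 50% was 66.9% in Tex15KO 16, against 65.5% in Tex15HT 18 and 63.8% in Tex15WT 9, for the first choice. For the second it was 65.5% in Tex15KO 16, against 58.5% in Tex15HT 7 and 60.6% in Tex15WT 8. The quartiles for the second choice were 23.1% and 44.9% in Tex15KO 16, against 20% and 45% in Tex15HT 7 and 21.1% and 45.7% in Tex15WT 8. The range between the quartiles of Tex15KO 16 was thus close to that of the control pups not used for the first choice and narrower than that of those not used for the second. In Tex15KO 3 it was wider for both, with quartiles of 1% and 69.2% for the first. The libraries differed in depth: Tex15KO 16 had 52935635 calls in total, against 33019847 to 40876698 in the control pups. How far depth bears on these ranges and shares was not tested, so they cannot be read as a trait of the genotype.

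**Figure D2:**
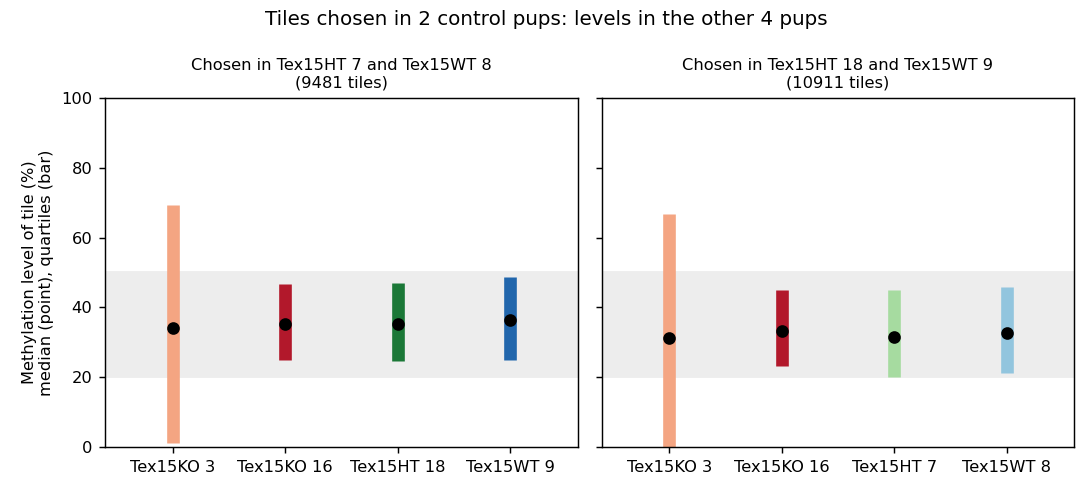
Methylation level (vertical axis, %) of tiles chosen in Tex15HT 7 and Tex15WT 8 (left) or in Tex15HT 18 and Tex15WT 9 (right), in the pups not used for the choice, with the median as a point, the quartiles as a bar and the 20% to 50% range shaded. The medians lie between 31.3% and 36.4%, and the bar of Tex15KO 3 is the longest in each panel.

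Summed over all members, calls came to 38.3% and 38.5% methylated in Tex15KO 3 and 16, 35.6% and 37.0% in Tex15HT 7 and 18, and 37.9% and 39.5% in Tex15WT 8 and 9. The Tex15KO pups lay within the range of the Tex15WT pups and above the Tex15HT pups. The mean was 38.4% ± 0.0952 in Tex15KO pups and 37.5% ± 1.63 in controls (SD, n = 2 and 4), a difference of 0.91 points. These sums are carried by 55 members with at least 1000 calls in each pup. Without these, the summed level was 36.1% ± 1.48 in Tex15KO pups, 34.4% ± 0.421 in Tex15HT pups and 34.8% ± 0.510 in Tex15WT pups (SD, n = 2 each). Of the difference of 1.55 points from the controls that this leaves, 0.51 points remained for Tex15KO 16 alone, close to the SD of 0.432 points among the 4 controls. Tile by tile, the median difference between the Tex15KO mean and the control mean was 0.18 points over members and 2.17 points over all 330110 tested tiles of the table. For Tex15KO 16 alone these medians were 0.54 and 0.72 points.

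The level of a member in the controls was kept in Tex15KO 16. Members with a control mean of 20% to 30% (886 tiles) had a median of 28.3% in Tex15KO 16, those of 30% to 40% (2661 tiles) had 35.3%, and those of 40% to 50% (685 tiles) had 43.8%. In Tex15KO 3 the medians of these classes were 23.7%, 33.3% and 45.5%. Control medians of the same classes lay from 26.1% to 27.3%, from 33.8% to 35.7% and from 42.9% to 43.9%.

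The comparison of Tex15KO with both control groups asks whether loss of Tex15 changes the methylation of tiles that are already partly methylated. In edgeR's quasi-likelihood test over all 330110 tested tiles, with Benjamini-Hochberg adjustment and calls at an adjusted p under 0.05, 0 members were lower in Tex15KO than in the mean of Tex15WT and Tex15HT, where 125 of all tested tiles (0.0379%) were called lower. The same test called 1 member higher, where 2 of all tested tiles (0.000606%) were called higher. At an unadjusted p under 0.05, 53 members (1.25%) were lower and 42 (0.992%) higher, against 1.73% and 1.40% of all tested tiles. Against Tex15WT, 1 member was called lower (0.00939% of all tested tiles) and 0 higher (0.000303%), with 23 members higher at an unadjusted p under 0.05 (0.543%, against 1.45% of all tested tiles). Against Tex15HT, 0 were called lower (0.00485%) and 3 higher (0.000909%), with 30 members lower at an unadjusted p under 0.05 (0.709%, against 1.27%). Counts of 0 to 3 among 4232 members are too few to be read against shares of this size. The 2 Tex15KO contrasts with single control groups share the Tex15KO pups, and the spread was shared over all tiles (infinite prior degrees of freedom), so a tile's p does not measure how far its own pups differed.

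All members called by edgeR were tiles with at least 580187 calls in each pup, and at this depth small differences pass the test. The member called higher against the mean of the controls and against Tex15HT, chr2:98507001-98508000, had levels of 42.0% and 41.9% in Tex15KO 3 and 16, 39.0% and 40.3% in Tex15HT 7 and 18, and 41.3% and 42.3% in Tex15WT 8 and 9. Tex15WT 9 was above both Tex15KO pups, so the groups overlapped, and edgeR's adjusted p was 9.14e-27 against the mean of the controls, at a difference of 1.2 points. The Wilson 95% interval of Tex15KO 3 there was 41.9% to 42.0%, which covers counting error only, as PCR copies are not independent molecules. The neighbouring member chr2:98506001-98507000, called lower against Tex15WT and higher against Tex15HT, had 36.8% and 37.0% in Tex15KO pups, 34.3% and 35.8% in Tex15HT pups, and 37.0% and 39.2% in Tex15WT pups. The member chr2:98502001-98503000, called higher against Tex15HT, had 33.5% and 34.1% in Tex15KO pups, against 31.4% and 32.6% in Tex15HT pups. No member was called in any of the 3 comparisons by edgeR once the most deeply read 0.1% of cytosines were dropped, where 20 to 51 members (0.484% to 1.23%) passed at an unadjusted p under 0.05 in each direction, against 0.896% to 1.69% of all tested tiles.

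With limma on log2 ratios of methylated to unmethylated calls, which weighs in the spread of each tile, other members were called, and those named next were named after their values were seen. Against both control groups it called 1 member lower (0.271% of all tested tiles were called lower) and 5 higher (0.00576%). Its unadjusted p was under 0.05 in 363 members (8.58%) on the lower side and 401 (9.48%) on the higher side, against 3.69% and 5.88% of all tested tiles. Against Tex15WT it called 0 members lower (0.0963%) and 0 higher (0.000303%), with 227 (5.36%, against 2.80% of all tested tiles) and 252 (5.95%, against 5.72%) at an unadjusted p under 0.05. Against Tex15HT it called 0 lower (0.0612%) and 1 higher (0.00151%), with 192 lower (4.54%, against 2.88%) at an unadjusted p under 0.05. The rule bounds the levels of the controls, which limits their spread, and limma weighs in that spread. The limma p values of members are thus not independent of the choice, and their shares beside all tested tiles are a description only. With edgeR the shares of members at an unadjusted p under 0.05 were below those of all tested tiles in each comparison and direction. The member called lower, chr12:63088001-63089000, had 0% and 2.13% in Tex15KO 3 and 16, 35.3% and 43.8% in Tex15HT 7 and 18, and 46.7% and 42.3% in Tex15WT 8 and 9, over 15 to 47 calls (limma adjusted p = 0.0385, edgeR adjusted p = 0.743). The member with the lowest limma adjusted p among those called higher, chr15:79774001-79775000, had 100% in both Tex15KO pups, 31.3% and 25% in Tex15HT pups and 40% and 26.7% in Tex15WT pups, over 10 to 28 calls (limma adjusted p = 0.0107, edgeR adjusted p = 0.237). The other 4 were at 100% in Tex15KO 3, from 82.5% to 92.9% in Tex15KO 16 and from 20% to 45.5% in the controls. In all 6 the Tex15KO pups did not overlap the controls, and none of the 6 was called by edgeR.

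Without a model, both Tex15KO pups lay below all 4 controls in 497 members (11.7%, against 4.32% of all tested tiles) and above them in 527 (12.5%, against 8.24%). By over 20 points they lay below in 22 members (0.520%, against 0.656%) and above in 46 (1.09%, against 0.073%). Taking Tex15KO 16 alone, 39 members (0.922%, against 1.1%) lay over 20 points below all controls and 110 (2.60%, against 0.178%) over 20 points above. The bounds of the rule leave a member more room above the controls than below them, and most tested tiles have little room above, so the shares in the 2 directions cannot be compared with each other. The rule bounds the controls only, so shares of members beyond all controls, here and below, are not independent of the choice. A difference from the share of all tested tiles is thus given as a description.

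The 8 largest decreases and 5 largest increases among members with at least 20 calls in each pup and no overlap show the pattern of these tiles. The largest decrease was at chr6:133702001-133703000, where Tex15KO 3 and 16 had 0% and 19.1%, against 50% and 46.9% in Tex15HT 7 and 18 and 50% in both Tex15WT pups. The 26 calls of Tex15KO 3 allow a level of up to 11.5%, and the Wilson 95% interval of Tex15KO 16 was 10.4% to 32.5% on 47 calls. The next was at chr2:150238001-150239000, with 0% and 8.33% in Tex15KO pups, 48.6% and 40.9% in Tex15HT pups, and 35.0% and 50% in Tex15WT pups. In the other 6 decreases Tex15KO 3 was from 0% to 2.17%, Tex15KO 16 from 5.67% to 21.2% and the controls from 20% to 50%. The largest increase was at chr5:65522001-65523000, with 100% and 75.4% in Tex15KO 3 and 16, 35.4% and 41.8% in Tex15HT 7 and 18, and 32.5% and 34.6% in Tex15WT 8 and 9. The next was at chr8:4664001-4665000, with 100% and 83.6% in Tex15KO pups, 44.0% and 47.6% in Tex15HT pups, and 38.1% and 36.7% in Tex15WT pups. In all 13 tiles Tex15KO 3 was farther from the controls than Tex15KO 16, and none passed either test (edgeR adjusted p = 1 against the mean of the controls in each, and limma adjusted p from 0.0777 to 0.457).

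**Figure D3:**
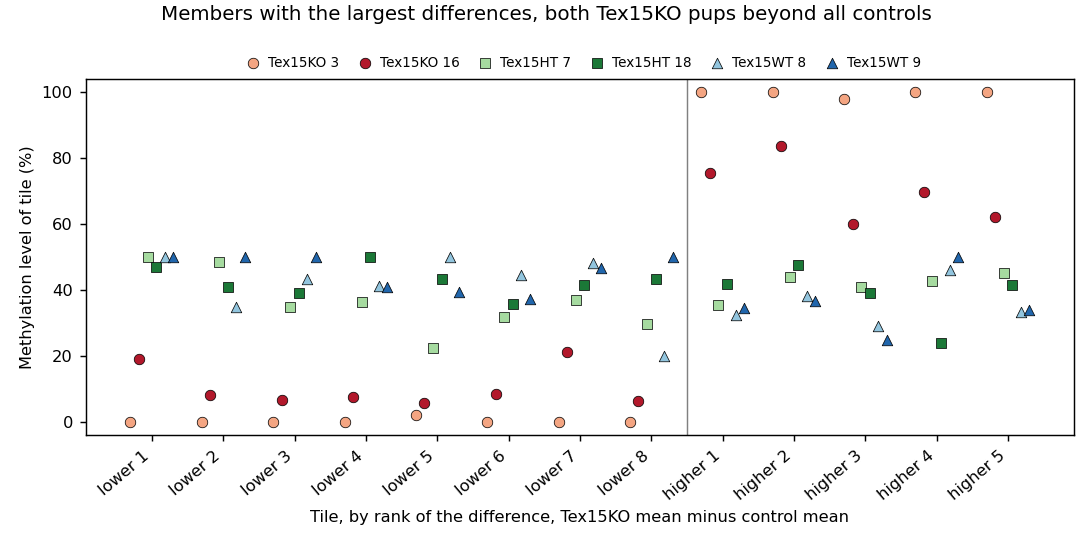
Methylation level (vertical axis, %) in each pup for the 8 members with the largest decrease and the 5 with the largest increase, by rank (horizontal axis), as 1 point per pup. Tex15KO points lie outside all control points in each tile because the tiles were selected so, and Tex15KO 3 is the point farthest out each time.

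Among members with 100 or more calls in each pup, the largest decrease without overlap was at chr4:145167001-145168000, a tile with 23 CpGs whose flanks over 3 tiles were at 60% or more on both sides. It was chosen after its values were seen. Its levels were 0.909% and 14.4% in Tex15KO 3 and 16, 41.4% and 25% in Tex15HT 7 and 18, and 46.7% and 46.3% in Tex15WT 8 and 9. The Wilson 95% intervals of Tex15KO 16 (11.2% to 18.5%, 353 calls) and of Tex15HT 18 (20.5% to 30.1%, 316 calls), the nearest pups of the groups, did not touch, and edgeR's adjusted p was 0.756. With its neighbours it formed a run of 3 members, chr4:145166001-145169000, at summed levels of 18.5% and 20.3% in Tex15KO pups, 42.0% and 29.4% in Tex15HT pups, and 40.7% and 41.6% in Tex15WT pups. The other tiles of this run did not show the decrease: chr4:145166001-145167000 had 60% and 32.7% in Tex15KO 3 and 16, over 20 and 55 calls, against 25.5% to 38.2% in the controls, and chr4:145168001-145169000 had 87.5% and 34% in Tex15KO pups, over 16 and 100 calls, against 27.3% to 45.7% in the controls.

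Members held a median of 10 CpGs (quartiles 7 and 13), against 8 (6 and 10) in all tested autosomal tiles. They made up 0.810% of tiles with 3 to 9 CpGs, 2.65% of tiles with 10 to 19 and 1.27% of tiles with 20 or more. Tiles under 20% in each control had a median of 21 CpGs and tiles over 50% a median of 7, so members lay between these classes. In members with 3 to 9 CpGs the median level was 33.3% and 37.1% in Tex15KO 3 and 16, and from 34.3% to 35.7% in the controls. In those with 20 or more CpGs it was 33.5% and 30.4% in Tex15KO 3 and 16, and from 32.1% to 35.4% in the controls. In those with 10 to 19 CpGs it was 33.3% in both Tex15KO pups and from 32.8% to 34.4% in the controls. Tex15KO 16 thus lay above all 4 control medians in the CpG-poor class and below them in the CpG-rich class. It lay among them in the class of 10 to 19 CpGs. The rule bounds the controls only, so these orders are not independent of the choice. The share of members per chromosome was lowest on chromosome 1, at 0.988% of its tested tiles, and highest on chromosome 10, at 1.5%.

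Most members stood alone: of 4108 runs of adjoining members, 4031 were single tiles. The longest, chr9:3000001-3039000, had 39 adjoining members, with summed levels of 36.5% in both Tex15KO pups, 33.5% and 34.8% in Tex15HT 7 and 18, and 35.7% and 37.4% in Tex15WT 8 and 9. The next, chr2:98502001-98508000, had 6 members at 39.1% and 39.3% in Tex15KO pups, 36.4% and 37.8% in Tex15HT pups, and 38.8% and 40.3% in Tex15WT pups. In both runs Tex15KO pups lay above both Tex15HT pups and between the Tex15WT pups. The third, chr11:3000001-3004000, had 4 members at 53.9% and 35.7% in Tex15KO 3 and 16, and from 39.1% to 39.8% in the controls.

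These runs hold most of the 55 members with at least 1000 calls in each pup, of which 39 lay at the start of chromosome 9 and 6 in the run on chromosome 2. Over these 55 tiles, pairs of CpGs within a tile were counted in a set range of distances, without the closest and the farthest pairs. In that range, the distance met most often was 234 bp (242 of 5880 pairs), with 468 bp, its next multiple, among the 4 most frequent. This spacing is that of the mouse major satellite, the tandem repeat of pericentromeric heterochromatin. The files name no repeats, and whether the tiles are that satellite was not tested. A call there can come from any copy that aligned to the assembled ones. The tile mean over these members was 35.6% ± 0.153 in Tex15KO pups, 33.1% ± 0.934 in Tex15HT pups and 35.5% ± 1.31 in Tex15WT pups (SD, n = 2 each). Members with fewer calls seldom held CpG runs that recur elsewhere: 24 of 4177 (0.575%) did, against 1.28% of all tested autosomal tiles. In these 24, the median level was 50.5% and 30.7% in Tex15KO 3 and 16, 34.2% and 38.7% in Tex15HT 7 and 18, and 32.9% and 38.2% in Tex15WT 8 and 9.

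Levels of the 3 tiles on each side could be measured for 4167 members. Both sides were at 60% or more in 1530 (36.7%), 1 side was at 60% or more and the other at 30% or less in 1135 (27.2%), both sides were at 30% or less in 81 (1.94%), and 1421 (34.1%) were in none of these classes. Members with high flanks on both sides had medians of 33.3% in both Tex15KO pups and from 33.3% to 35.7% in the controls. Members at an edge, with 1 high and 1 low side, had 34.8% and 36.0% in Tex15KO 3 and 16 and from 34.1% to 34.5% in the controls.

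Each member was then turned so that its lower side, judged in Tex15HT 7 and Tex15WT 8, lay left. In the other 4 pups, the mean level of the adjoining tile on the low side was 33.1% and 35.1% in Tex15KO 3 and 16, against 34.4% in Tex15HT 18 and 35.1% in Tex15WT 9. On the high side it was 79.2% and 80.7% in Tex15KO 3 and 16, against 80.5% in Tex15HT 18 and 77.6% in Tex15WT 9. By 5 kb on the low side the mean had returned to 77.1% and 79.3% in Tex15KO pups, against 78.8% in Tex15HT 18 and 75.9% in Tex15WT 9. In all 4 pups the level stayed near that of the member on the low side for 1 tile and was near 80% in the adjoining tile on the high side.

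**Figure D4:**
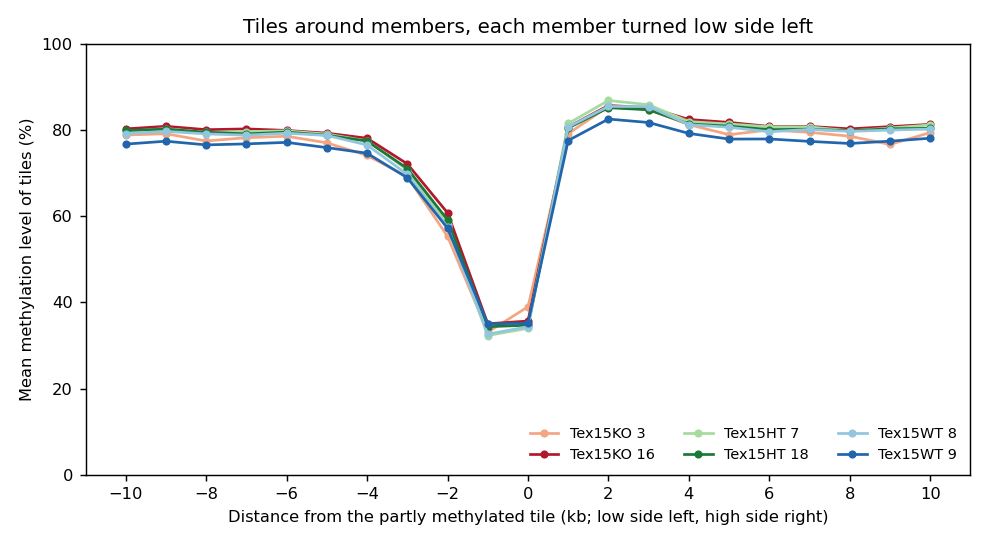
Mean methylation level of tiles (vertical axis, %) by distance in kb from a partly methylated tile (horizontal axis), 1 line per pup, each member turned so that the side lower in Tex15HT 7 and Tex15WT 8 lies left, tiles with 5 or more calls. All 6 lines go through a trough at the member and its left neighbour and stand near 80% from 5 kb outwards on both sides.

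Single CpGs inside members showed the same mixture, with the 55 members of at least 1000 calls in each pup left out. Among 31012 CpGs of members with 10 or more pooled control calls, 36.7% were under 20%, 38.4% from 20% to 50%, 15.4% over 50% and up to 80%, and 9.46% over 80%. In Tex15KO 16 alone, 3604 CpGs had 10 or more calls, and 36.0% of them were under 20% and 8.10% over 80%. In single control pups 893 to 1897 CpGs had that many, and 27.5% to 31.8% of them were under 20% and 4.37% to 5.32% over 80%. In Tex15KO 3, 8150 CpGs had that many calls, and 59.1% of them were under 20% and 33.0% over 80%, with 54.2% at exactly 0%. The shares at both extremes were thus larger in both Tex15KO pups than in each control pup. The rule bounds the tiles of the controls only, so this order is not independent of the choice, and it is given with no test. Of 3667 members with 4 or more such control CpGs, 1760 (48.0%) held a CpG under 20% and a CpG over 80%, and 307 (8.37%) held CpGs from 20% to 80% only. CpGs with few calls fall under 20% or over 80% by counting error too, so these shares are not free of depth.

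The side on which a member was methylated was kept in Tex15KO 16, again with the 55 members of at least 1000 calls in each pup left out. The left and the right part of a tile, split at its middle, both had enough calls in 3301 members, and in 1798 of these (54.5%) their levels differed by 40 points or more in the pooled controls. In Tex15KO 16, which was not used to select them, the parts differed the same way by 20 points or more in 1726 (96.0%) and the other way in 1. The higher part had a median of 76.1% in Tex15KO 16, against 74.3% in pooled controls, and the lower part 11.8% in Tex15KO 16, against 12.2% in pooled controls. Among members at an edge, 681 of 924 (73.7%) had such a step inside the tile, with medians of 78.3% and 10.0% for the higher and the lower part in Tex15KO 16, against 74.5% and 9.83% in pooled controls. Among members with both flanks high, 456 of 1183 (38.5%) had one.

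Gene starts were found by placing 7527 RefSeq start sequences on the table by their CpG spacing. Of the members, 402 (9.50%) had their centre within 2500 bases of a placed start, against 4.47% of all tested autosomal tiles, and 71 (1.68%) held part of a placed sequence, against 1.97%. Only sequences with 6 or more CpGs could be placed, so CpG-poor starts are missing from these counts. Of the 402, 220 lay on the gene side of the start and 182 on the other side. Their median level was 29.9% and 35.3% in Tex15KO 3 and 16, 33.3% and 34.7% in Tex15HT 7 and 18, and 34% and 33.3% in Tex15WT 8 and 9. Both Tex15KO pups lay below all controls in 36 of them (8.96%), against 11.7% of all members and 4.32% of all tested tiles. They lay above all controls in 39 (9.70%), against 12.5% of all members and 8.24% of all tested tiles.

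Around the 388 starts with a member near by, methylation formed a trough with sloping sides. In the first 250 bases of the gene the summed level was 3.60% and 3.88% in Tex15KO 3 and 16, 4.52% and 4.05% in Tex15HT 7 and 18, and 4.22% and 4.23% in Tex15WT 8 and 9. From 1000 to 1250 bases into the gene it was 36.0% and 32.7% in Tex15KO pups, 30.1% and 31.0% in Tex15HT pups, and 29.1% and 31.1% in Tex15WT pups. From 2000 to 2250 bases it was 67.4% and 78.2% in Tex15KO pups, 75.8% and 77.4% in Tex15HT pups, and 76.9% and 72.6% in Tex15WT pups. Tex15KO 16 was thus just below all 4 controls at the start itself and just above them at these 2 places farther into the gene. It lay among them from 750 to 1000 bases, at 17.0% against 16.4% to 17.3%. From 1250 to 1500 bases it also did, at 46.6% against 46.3% to 47.9%. The starts were taken for a member near by, whose controls the rule bounds, so these orders are not independent of the choice.

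**Figure D5:**
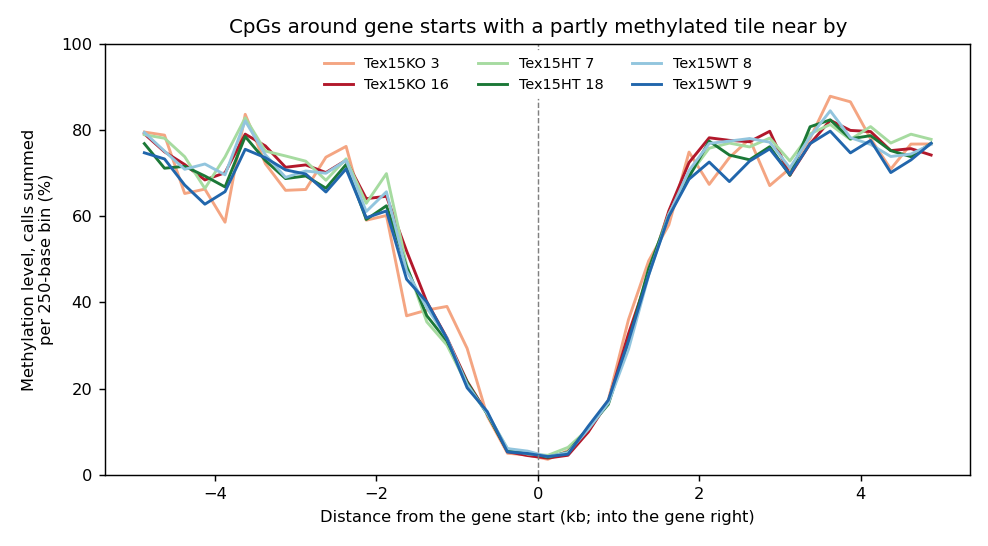
Methylation level of CpGs (vertical axis, %, calls summed over 388 gene starts in bins of 250 bases) by distance from the start in kb (horizontal axis, into the gene to the right), 1 line per pup. All 6 pups are near 4% at the start and lie between 67.4% and 78.2% from 2000 to 2250 bases on the gene side, and Tex15KO 3 departs most from the other lines.

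Values of single tiles beside gene starts are given next as a description. The tiles were chosen after their values were seen, and none was called by edgeR or limma. In Pld2, which encodes a phospholipase D, the tile chr11:70354001-70355000, centred 935 bases into the gene, had 15% and 24.8% in Tex15KO 3 and 16, 27.5% and 35.2% in Tex15HT 7 and 18, and 32.1% and 33.3% in Tex15WT 8 and 9, over 78 to 120 calls. In the zinc finger gene Zfp984, the tile chr4:147182001-147183000 had 21.2% and 28.9% in Tex15KO pups, 37.8% and 47.8% in Tex15HT pups, and 34.3% and 40.5% in Tex15WT pups. In Ctnnb1, which encodes beta-catenin of the WNT pathway and of cell junctions, the tile chr9:120844001-120845000, 1805 bases into the gene, had 60.8% and 61.3% in Tex15KO pups, 24.0% and 37.3% in Tex15HT pups, and 25% and 26.4% in Tex15WT pups, over 28 to 75 calls. The groups did not overlap in these 3 tiles, with both Tex15KO pups below the controls at Pld2 and Zfp984 and above them at Ctnnb1.

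In Pard6a, which encodes a protein of cell polarity, both Tex15KO pups were below all controls in 1 member and above them in the next, and neither tile was called. The tile chr8:108226001-108227000 had 35.3% and 30.3% in Tex15KO 3 and 16, 45.8% and 44.9% in Tex15HT 7 and 18, and 50% and 38.0% in Tex15WT 8 and 9. The next tile into the gene, chr8:108227001-108228000, had 58.1% and 43.2% in Tex15KO pups, 34.6% and 30.8% in Tex15HT pups, and 31.0% and 20.7% in Tex15WT pups. At the start of Bhlha15, which encodes a transcription factor of secretory cells, the tile chr5:144951001-144952000 had 0% and 29.3% in Tex15KO pups, 30.6% and 38.3% in Tex15HT pups, and 43.2% and 24.0% in Tex15WT pups. There only Tex15KO 3 stood outside the controls, over 106 calls, and Tex15KO 16 lay among them.

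At the bounds of the rule, the member nearest the lower bound, chr13:95396001-95397000, had its lowest control at 20% in Tex15HT 7, and the tile just outside, chr4:133913001-133914000, had 19.8% there. The member nearest the upper bound, chr4:145143001-145144000, had its highest control at 50% in Tex15WT 9, and the tile just outside, chr11:3051001-3052000, had 50.3% in Tex15WT 8.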

How the data were processed

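The 6 libraries of whole-genome bisulfite sequencing report CpG methylation. The authors deposited 1 table of counts: per the file headers, the coverage and the calls read as C and as T at each cytosine of a CpG. Per the labels' protocols, each library began with some 10 ng of DNA, to which unmethylated lambda DNA was added at 0.5%. BSMAP, Bismark and methylKit and the build mm9 are named in the submitters' processing notes, with no role or order. How PCR duplicates were treated, and the conversion rate reached, is not given in the sources used here; either would move levels.

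Strands were merged, calls were summed over 1 kb tiles from position 1, and tiles with at least 3 CpGs and 10 calls in each pup were tested (330110). The quasi-likelihood functions of edgeR 4.0.16 (R 4.3.3) were fitted on methylated and unmethylated counts of all 6 pups with an intercept per sample and a common dispersion. The alternative was limma 3.58.1, on log2 ratios after adding 1 to each of the 2 counts. Both were also run on simulated data with the same spread in every pup. Tex15KO 3 is unlike that, so the run does not show how either performs on these data. Named tiles are the 10 with most calls, those called, the 8 largest decreases and 5 largest increases without overlap at 20 or more calls, the 3 longest runs and the tiles at the bounds of the rule. Others are said to be chosen after their values were seen, and the printed sequences were chosen with control levels known.

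The files hold no gene names. RefSeq start sequences (GRCm38.p6, 32851, of which 18541 have 6 or more CpGs) were placed on mm9 where the observed CpGs of exactly 1 stretch, at least 6 and at least 50% of those in the sequence, all fell on its CpGs. This placed 7580, of which 7527 (99.3%) lay on the chromosome RefSeq names and were kept. Of 7508 neighbouring pairs, 7506 stood in RefSeq's gene order. The way of placing them was set after seeing the data, and the members, lists and classes were chosen with earlier results of these data known. Wilson intervals at 95% and limits of 3 counts cover counting error only. Alternatives tried were limma, minimums of 30 calls or 10 CpGs, leaving out deeply read cytosines, shifted tiles, bounds of 15% to 55% or 25% to 45%, and leaving out each pup.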

Additional observations from a re-analysis of the deposited data

How the results depend on the processing

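The number of members was 995 with a minimum of 30 calls, 2364 with a minimum of 10 CpGs, 8743 with controls from 15% to 55% and 1151 with controls from 25% to 45%. Members with Tex15KO over 20 points below every control then numbered 2, 10, 42 and 8, which is 0.201%, 0.423%, 0.480% and 0.695% of members, against 0.744%, 0.824%, 0.656% and 0.656% of the tiles tested. Those over 20 points above every control numbered 1, 21, 81 and 14 (0.101%, 0.888%, 0.926% and 1.22%), against 0.0431%, 0.0709%, 0.073% and 0.073% of the tiles tested. Called lower against the mean of the controls was 1 member with limma, 1 with tiles that start 500 bases later and 1 at 15% to 55%. Of all tested tiles, 896 of 330110, 135 of 329843 and 125 of 330110 were called lower there. Members called higher numbered 5 with limma and 0 without the top 0.1% of coverage, beside 19 of 330110 and 1 of 328566 tested tiles. Against Tex15WT, members called lower numbered 0 with limma, 3 at 30 calls, 2 at 10 CpGs, 0 without the top 0.1% of coverage and 0 with shifted tiles. In the same order, 318 of 330110, 52 of 34801, 50 of 98711, 0 of 328566 and 22 of 329843 tested tiles were called lower. Against Tex15HT, members called higher numbered 1 with limma and 0 without the top 0.1% of coverage, beside 5 and 0 of all tested tiles. The difference of the summed level was 2.78 points as a mean over tiles. The cause of these shifts was not tested, beyond the smaller or larger set that each setting makes.

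With each pup left out in turn, members called ranged from 0 to 432 lower and 1 to 562 higher against the mean of the controls, from 0 to 281 lower and 0 to 450 higher against Tex15WT, and from 0 to 273 lower and 0 to 448 higher against Tex15HT. Over all 330110 tested tiles the same ranges were 12 to 14498 and 1 to 7620, 9 to 9967 and 0 to 5798, and 4 to 10532 and 1 to 5237. Those over 20 points below every control ranged from 25 to 1100 and those above from 52 to 1149. Without Tex15KO 16 these were 26.0% and 27.2% of members, against 8.12% and 3.25% of all tested tiles. The highest value of each range is that without Tex15KO 16, which leaves Tex15KO 3 as the only knockout, assumed to vary like the other groups. Without Tex15KO 3, edgeR called 2 members lower and 1 higher against the mean of the controls, beside 638 and 6 of all tested tiles, 0 against Tex15WT and 0 against Tex15HT. The difference of the summed level ranged from 0.28 to 1.57 points. Differences of 4 deep tiles changed sign: chr2:98506001-98507000 ranged from -0.47 to 1.19 points, chr2:98502001-98503000 from -0.23 to 1.26, chr9:35113001-35114000 from -1.14 to 0.51 and chr2:98503001-98504000 from -0.38 to 0.70. The sample titles number each pup singly and name no litter, so no paired analysis was made and a litter effect was not tested.

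Limits: n is 2 per group, Tex15KO 3 covers few cytosines, and tiles of few calls sort into members partly by counting error. Repeats and genes other than the placed starts were not used here.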

Other observations

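The start of Pou5f1, which encodes OCT4 and whose sequence drives reporters such as the Oct4-GFP used in the sort, is no member. The level of the calls that aligned there differed between the genotypes. Over the 10 CpGs observed in the 300-base sequence of this start, the level was 5.20% and 12.9% in Tex15KO 3 and 16, 51.6% and 51.5% in Tex15HT 7 and 18, and 80.9% and 76.2% in Tex15WT 8 and 9, over 519 to 1159 calls per pup. The groups did not overlap, and Tex15HT pups lay between Tex15KO and Tex15WT pups. A second annotated start of the gene was at 98.2% and 95.5% in Tex15KO pups, 94.5% and 92.9% in Tex15HT pups, and 94.5% and 91.9% in Tex15WT pups. The values were looked at after those of other starts, and no test was run. Across all cytosines with calls the median was 2 to 8 calls per library, so both starts were read far more deeply than most. How many of the calls come from copies of the reporter was not tested, so the level of the gene's own start cannot be told apart from theirs.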
